A study of Homo sapiens with 6 samples.

Results

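The genes described here are the D-type cyclins (CCND1, CCND2 and CCND3) and the G1 kinases that bind them (CDK4 and CDK6). With them are inhibitors of cyclin-dependent kinases: CDKN1A, CDKN1B and CDKN1C of the CIP/KIP family, and CDKN2C and CDKN2D of the INK4 family. These 10 genes were found by their symbols in a table of 63140 genes, with 1 line for each. All 10 had enough counts to be tested, among 16754 tested genes. The study compared HEK293 cells given 100 nM GSK-A1 for 24 h with HEK293 cells given dimethyl sulfoxide (DMSO), the solvent. GSK-A1 blocks PI4KA, the lipid kinase that makes phosphatidylinositol 4-phosphate at the plasma membrane. Each group had 3 RNA sequencing libraries, and the cultures were confluent at treatment, per the labels' protocols.

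D-type cyclins are made in response to growth signals, bind CDK4 or CDK6, and drive phosphorylation of the retinoblastoma protein RB1 and its relatives, which frees E2F transcription factors to switch on genes of DNA synthesis. INK4 proteins bind CDK4 and CDK6 alone and keep the cyclin away. CIP/KIP proteins bind cyclin and kinase together, inhibit CDK2 complexes, and can help D cyclin complexes to assemble. HEK293 is an established human line derived from embryonic kidney, and it carries early-region adenovirus genes whose products bind RB1 family proteins, so control at that point differs from that in untransformed cells. A bulk library cannot tell a change in the number of cells in a phase of the cycle from a change in RNA per cell.

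Total counts ranged from 33040178 to 47777233 per library. GSK-A1 replicate 2 stood somewhat apart. Its correlation of log2 expression across genes with the other GSK-A1 libraries was 0.994 to 0.995, against 0.997 for the other pairs within a group. Levels are given as CPM, the count scaled to library size. Of the 8 HEK293 markers looked at, 7 were tested, and the neurofilament gene NEFM, with 2 to 13 counts per library, was not. Of the 7, 3 were called: VIM (0.17 ± 0.04 in log2 units, SE) and KRT8 (0.11 ± 0.04) were higher with GSK-A1, and PAX2 (-0.43 ± 0.12) was lower (edgeR adjusted p from 0.00423 to 0.0373). The marker lists of blood, endothelium and hepatocytes each summed to at most 0.29 CPM in any library. The 4 fibroblast markers summed to 2.59 to 3.60 CPM with DMSO and 1.98 to 2.46 CPM with GSK-A1, most of it PDGFRA, and COL1A2 was at 0. PDGFRA was called lower with GSK-A1 (-0.45 ± 0.15 in log2 units, SE; edgeR adjusted p = 0.0333). Whether these marker differences have a part in any result below was not tested.

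With GSK-A1, 6 of the 10 genes changed, 4 of them upward and 2 downward. CDKN1A, CDKN2D, CCND2 and CDK6 rose, and CDKN2C and CDK4 fell. The CDK6 call depended on the processing and on single libraries, as given below. CCND1, CCND3, CDKN1B and CDKN1C were not called. Calls are those of edgeR's quasi-likelihood test with a Benjamini-Hochberg adjusted p, taken across the whole table, below 0.05. By that rule 22.9% of all tested genes were called, 12.0% as higher and 10.9% as lower. By family, among these 10 genes, 1 of 3 D cyclins, 2 of 2 kinases, 1 of 3 CIP/KIP inhibitors and 2 of 2 INK4 inhibitors were called. The other INK4 genes, CDKN2A and CDKN2B, are outside the 10 and were not called (edgeR adjusted p = 0.167 and 0.929). The size of the changes was modest. The median absolute log2 difference of the 6 called members was 0.24, the same as that of all called genes. CPM values did not overlap between the groups for 7 members, against 40.5% of all tested genes.

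**Figure D1:**
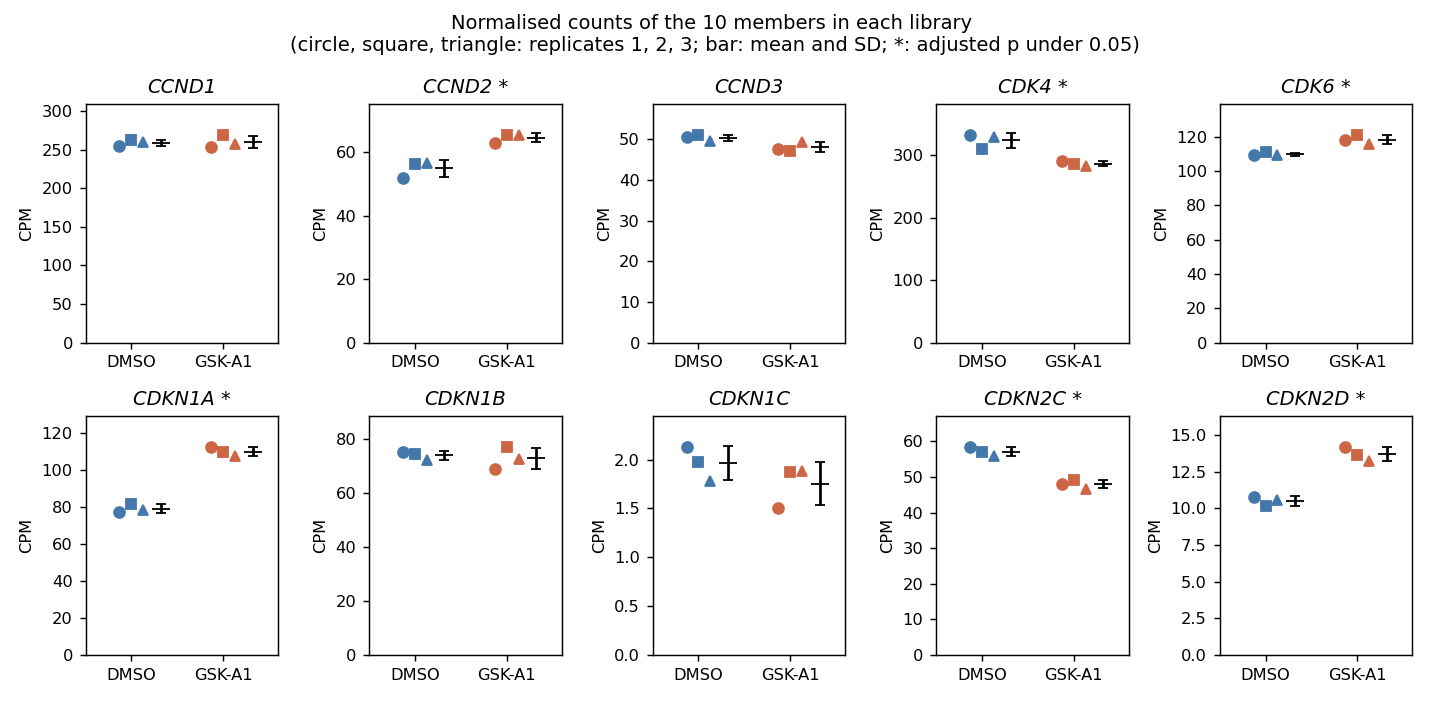
Normalised counts (CPM, linear axis from 0) of each of the 10 genes in the 3 DMSO and 3 GSK-A1 libraries, with symbols for replicates 1 to 3, a bar for the mean and SD of each group, and a star where the edgeR adjusted p was under 0.05. CDKN1A and CDKN2D sit clearly higher with GSK-A1, CDK4 and CDKN2C lower, and the groups of CCND1, CDKN1B and CDKN1C overlap.

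Among the D cyclins only CCND2 passed the test. CCND1 (ENSG00000110092, chromosome 11, 69641087 to 69654474, plus strand, GRCh38) had the highest level per kilobase of the 3, as given further on. In order of replicate number, the DMSO libraries gave 255, 263 and 260.0 CPM, and the GSK-A1 libraries gave 254, 269 and 257 CPM. The groups overlapped, and GSK-A1 replicate 2 was the highest of the 6 libraries. Its fitted change was 0.0059 ± 0.035 in log2 units (SE; edgeR adjusted p = 0.927; 95% interval -0.07 to 0.08). That interval holds no change of more than a few percent in either direction, and the sign turned with upper-quartile factors (-0.04) and with library totals only (-0.0021). LTO1, read from the other strand, shares 10.3% of the exonic bases of CCND1, and LTO1 itself gave 19.3 ± 0.8 and 19.2 ± 0.6 CPM (DMSO, then GSK-A1; SD, n = 3).

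CCND2 (ENSG00000118971, chromosome 12, 4273772 to 4305350, plus strand), the D cyclin that dominates in many neural and blood cells, rose. It stood at 51.9, 56.4 and 56.5 CPM in the DMSO libraries and at 63.0, 65.4 and 65.5 CPM in the GSK-A1 libraries. Every GSK-A1 library lay above every DMSO library, and DMSO replicate 1 was the lowest. The rise was 0.24 ± 0.05 in log2 units (SE; edgeR adjusted p = 0.00159), or 1.18-fold. A same-strand gene model (AC008012.1) covers 13.8% of its exonic length and held no counts in any library. CCND3 (ENSG00000112576, chromosome 6, 41934933 to 42050357, minus strand) went the other way without passing the test. Its values were 50.5, 51.1 and 49.7 CPM with DMSO and 47.7, 47.2 and 49.4 CPM with GSK-A1. The groups did not overlap, but by a narrow margin, and the fitted log2 difference was -0.07 ± 0.04 (SE; edgeR adjusted p = 0.266; 95% interval -0.16 to 0.02).

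The 2 kinases changed in opposite directions. CDK4 (ENSG00000135446, chromosome 12, 57747727 to 57756013, minus strand) fell. It stood at 333, 310.3 and 329 CPM in the DMSO libraries and at 291.0, 286 and 283 CPM in the GSK-A1 libraries. DMSO replicate 2 was the lowest of its group and still lay above all GSK-A1 libraries. This is a log2 change of -0.18 ± 0.04 (SE; edgeR adjusted p = 0.00245), a level 0.88 times that with DMSO. TSPAN31, read from the other strand, shares 43.2% of the exonic bases of CDK4. It gave 27.1 ± 0.6 and 24.6 ± 2.5 CPM (DMSO, then GSK-A1; SD, n = 3), and its log2 fold change was -0.14 ± 0.06 (edgeR adjusted p = 0.117). The kit was stranded per the labels' protocols, but the strand setting of the counting was not given in the sources used here.

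CDK6 (ENSG00000105810, chromosome 7, 92604921 to 92836594, minus strand) rose by less than any other called member. It stood at 109.3, 111 and 109.1 CPM with DMSO and at 118, 121 and 116 CPM with GSK-A1. The groups did not overlap. The rise was 0.11 ± 0.04 in log2 units (SE; edgeR adjusted p = 0.0464), or 1.08-fold. This call was lost under upper-quartile factors (0.07, edgeR adjusted p = 0.192) and in each fit that left out DMSO replicate 1, 2 or 3 or GSK-A1 replicate 1, where the edgeR adjusted p was 0.0986 to 0.159.

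The window before the RefSeq start of CDK4 is shown for its number of E-boxes, the motif CACGTG that MYC and related factors can bind, and because MYC mRNA is among the regulators read below. The 250 bases before the start hold 3 E-boxes, and 211 of these bases lie in a CDK4 exon of GENCODE 29, so most of the window is transcribed in that annotation. Of all 35116 RefSeq promoter windows of that length, 6.34% held at least 1, and 28 windows, or 0.0797%, held at least 3. The CDK4 window was picked for this number among 12 windows and 9 motif forms, so the 0.0797% belongs to a chosen extreme. MYC mRNA rose while CDK4 fell, and no link between them was tested. The E-box was searched on both strands and reads the same on each. The first 2 lie together 216 bases before the start (GRCh38.p14, chr12:57752499-57752528, minus strand) and the third 101 bases before it (chr12:57752394-57752423, minus strand). Both stretches are written 5′ to 3′ along the gene with E-boxes in capitals.
CDK4 E-boxes 1 and 2: gtCACGTGtgatagcaacagatCACGTGgc
CDK4 E-box 3: atgggtggcggtCACGTGcccagaacgtcc
A match is a string of letters and was not measured as a bound site. The other member with an E-box was CDKN2C, with 1 match before its first start (220 bases before it, chr1:50960513-50960542, plus strand) and 1 before another of its starts (chr1:50970172-50970201, plus strand), where a GC box is in capitals too.
Before the first start no base is exonic in GENCODE 29, and before the other all 250 bases lie in a CDKN2C exon.
CDKN2C first start: gattgtgcacctCACGTGgttagtcacaca
CDKN2C other start: taatCACGTGtgaatcgagGGGCGGgcttt
Promoter windows were matched for 7 of the 10 members, with 12 starts in all.

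CDKN1A (ENSG00000124762, chromosome 6, 36676460 to 36687339, plus strand) encodes p21, the inhibitor that DNA damage, stress and growth factor signals can induce. It had the largest change of the 10 genes. It stood at 77.1, 81.7 and 78.4 CPM in the DMSO libraries and at 112, 109.7 and 108 CPM in the GSK-A1 libraries. The lowest GSK-A1 library was well above the highest DMSO library, and the spread within each group was small. The log2 difference came to 0.47 ± 0.04 (SE; edgeR adjusted p = 6.71e-07), or 1.39-fold, and the gene ranked 39th by p-value among the 16754 tested. With GSK-A1 replicate 2 left out the log2 fold change was 0.48.

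The window before the RefSeq start of CDKN1A is shown for its GC boxes (GGGCGG, the core that SP1 and KLF factors can bind), since genes of both families are in the regulator list. It held 4, and 7.63% of all promoter windows held at least 4, while 42.6% held at least 1. These shares were not adjusted for base content, and the CDKN1A window is 76.4% G and C, against a median of 58.0% over all windows. The second pair of GC boxes overlaps by a base. In GENCODE 29, 152 of the 250 bases lie in exons of CDKN1A or of DINOL on the other strand. Capitals mark the GC boxes (GRCh38.p14, chr6:36678603-36678632 and chr6:36678660-36678689, plus strand).
CDKN1A GC boxes 1 and 2: ccggggaGGGCGGtcccGGGCGGcgcggtg
CDKN1A GC boxes 3 and 4: ggcgggcccGGGCGGGGCGGttgtatatca
CDKN1B GC box: ccagcctcggcgGGGCGGctcccgccgccg
CDKN1B, whose mRNA was not called, had a single GC box (chr12:12717285-12717314, plus strand), in a window with 244 of 250 bases in a CDKN1B exon. All 7 members with a promoter window held at least 1 GC box in 1 of their windows, and by window 9 of the 12 did. The most in a window was 5, for CCND3, which was not called, and for CDKN2C, which fell. It was 3 for CDK4, which fell, and for CDK6, which rose, and 2 for CDKN2D, which rose. The number of GC boxes was not tested against the changes. Searches on both strands for AP-1 (TGACTCA), CRE (TGACGTCA), FOXO (GTAAACA) and E2F (TTTCCCGC or TTTGGCGC) motifs gave no match in the 12 windows, which says only that these letters are not there. Shares of all windows with these motifs were 4.2%, 1.65%, 2.98%, 1.39% and 0.55%. The ETS (CCGGAAG) and EGR1 (GCGGGGGCG) motifs were searched too. Each had 1 match, both before starts of CCND3, which was not called. Of all windows, 8.52% held the ETS motif and 4.72% the EGR1 motif.

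CDKN1B (ENSG00000111276, chromosome 12, 12715058 to 12722371, plus strand) encodes p27, the inhibitor that accumulates in resting and contact-inhibited cells, largely through slower protein breakdown. It stood at 75.4, 74.7 and 72.3 CPM with DMSO and at 69.0, 77.1 and 72.6 CPM with GSK-A1. GSK-A1 libraries were both the lowest and the highest of the 6. The fitted value was -0.03 ± 0.05 in log2 units (SE; edgeR adjusted p = 0.733; 95% interval -0.12 to 0.07), and it was 0.02 without GSK-A1 replicate 1. CDKN1C (ENSG00000129757, chromosome 11, 2883213 to 2885773, minus strand) encodes p57, an imprinted inhibitor. It had the lowest counts of the 10 genes, at 2.13, 1.98 and 1.78 CPM with DMSO and 1.5, 1.87 and 1.89 CPM with GSK-A1. The groups overlapped. At 59 to 102 counts per library its interval was wide, from -0.51 to 0.12 around a fitted -0.19 ± 0.15 on the log2 scale (SE; edgeR adjusted p = 0.374). The interval holds a fall as large as the CCND2 rise, so such a fall could have been missed, but it holds no rise of that size.

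The 2 INK4 inhibitors described here moved in opposite directions. CDKN2C (ENSG00000123080, chromosome 1, 50960745 to 50974633, plus strand) encodes p18. It stood at 58.4, 57.0 and 55.9 CPM with DMSO and at 48, 49.1 and 46.8 CPM with GSK-A1. All GSK-A1 libraries were lower than all DMSO libraries. The log2 difference came to -0.25 ± 0.04 (SE; edgeR adjusted p = 6.27e-04), a level 0.84 times that with DMSO. CDKN2D (ENSG00000129355, chromosome 19, 10566462 to 10569059, minus strand) encodes p19. It stood at 10.7, 10.1 and 10.6 CPM with DMSO and at 14.2, 13.7 and 13.2 CPM with GSK-A1. All GSK-A1 libraries were higher than all DMSO libraries, and the log2 difference came to 0.39 ± 0.07 (SE; edgeR adjusted p = 6.13e-04), or 1.31-fold. Per kilobase of transcript CDKN2C, which fell, was the higher of the pair in every library, and CDKN2D, which rose, the lower.

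**Figure D2:**
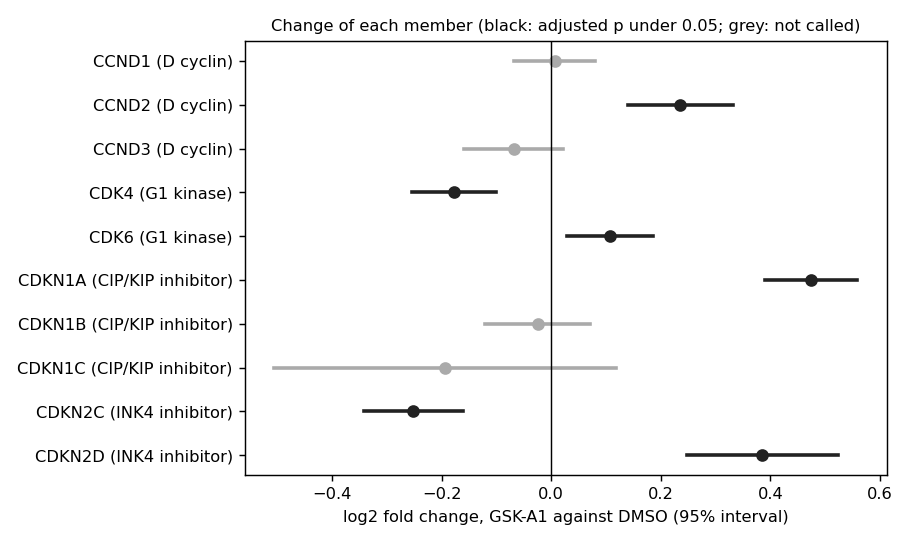
Log2 fold change of each gene (points) with its 95% interval (lines), GSK-A1 against DMSO over 3 libraries each, in black where the edgeR adjusted p was under 0.05. CDKN1A at 0.47 and CDKN2D at 0.39 lie farthest to the right, CDKN2C at -0.25 lies farthest to the left of the called genes, and the widest interval is that of CDKN1C.

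To compare levels between genes, CPM were divided by the length of the longest transcript in kilobases, with transcripts from GENCODE 29. With DMSO, CDK4 was the highest at 156 ± 6 CPM per kilobase (SD, n = 3). CCND1 followed at 60.2 ± 0.9, then CDKN1A at 34.9 ± 1.1, CDKN1B at 27.9 ± 0.6, CCND3 at 21.1 ± 0.3 and CDKN2C at 19.7 ± 0.4. CDK6 (9.45 ± 0.09), CCND2 (8.47 ± 0.40) and CDKN2D (7.38 ± 0.22) were lower, and CDKN1C was at 1.01 ± 0.09 CPM per kilobase. No neighbours in this order overlapped between libraries with DMSO. With GSK-A1 the order was kept, but CDK6 (10.2 ± 0.2), CCND2 (9.97 ± 0.22) and CDKN2D (9.61 ± 0.34) came within each other's spread, and CDKN1A reached 48.5 ± 1.0 CPM per kilobase. The order depends on the length used. With the union of all exons, CCND3 fell to 8.69 ± 0.12 CPM per kilobase with DMSO, below CDK6, and CDKN1A and CDKN1B overlapped.

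Shares within each family were then compared, since a share is free of the library scaling. CDKN1A made up 54.7% ± 1.0 of the CIP/KIP transcripts per kilobase with DMSO and 63.1% ± 1.6 with the inhibitor (SD, n = 3). The CDKN1B share went from 43.7% ± 0.8 to 35.7% ± 1.5. Shares within a family are tied, so a rise of CDKN1A lowers the CDKN1B share, and CDKN1B itself was not called. By library the CDKN1A share was 53.6%, 55.3% and 55.1% with DMSO, against 64.9%, 61.7% and 62.6% with GSK-A1, with no overlap. CDKN2C made up 72.7% ± 0.6 of the INK4 pair with DMSO and 63.2% ± 0.7 with GSK-A1, and its range was 72.1% to 73.4% in the first group and 62.4% to 63.8% in the second. CDKN1C took 1.59% ± 0.13 and 1.18% ± 0.14 of the CIP/KIP transcripts.

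The cyclin and kinase families shifted less. CCND2 took 9.44% ± 0.33 of the D cyclin transcripts with DMSO and 11% ± 0.1 with GSK-A1, CCND3 23.5% ± 0.4 and 22.2% ± 0.8, and CCND1 67.1% ± 0.1 and 66.8% ± 0.9 (SD, n = 3). CDK4 took 94.3% ± 0.3 of the kinase pair with DMSO and 93.1% ± 0.1 with GSK-A1. The size of these shifts depends on the length used: with no length correction the difference was -3.89 points for CDK4, against -1.16 per kilobase, and -1.33 for CCND1, against -0.31. The log2 ratio of the 5 inhibitors described here, summed, to the 3 D cyclins summed was 0.02 ± 0.03 with DMSO and 0.19 ± 0.03 with GSK-A1. This difference of 0.17 was 0.11 with no length correction. The sum leaves out CDKN2B and CDKN2A, and CDKN2A, not called, stood at 121 ± 8 CPM with DMSO and 113 ± 6 CPM with GSK-A1. Of these 9 measures, all but the CCND1 share had groups without overlap, each with an exact two-sided permutation p of 0.1, the smallest that 3 against 3 libraries allow, and 0.112 after Benjamini-Hochberg adjustment over the 9. The CCND1 share gave an exact permutation p of 0.7. The exact test could therefore not pass 0.05 for any measure. Shares within a family are tied to each other, so the measures are not independent.

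**Figure D3:**
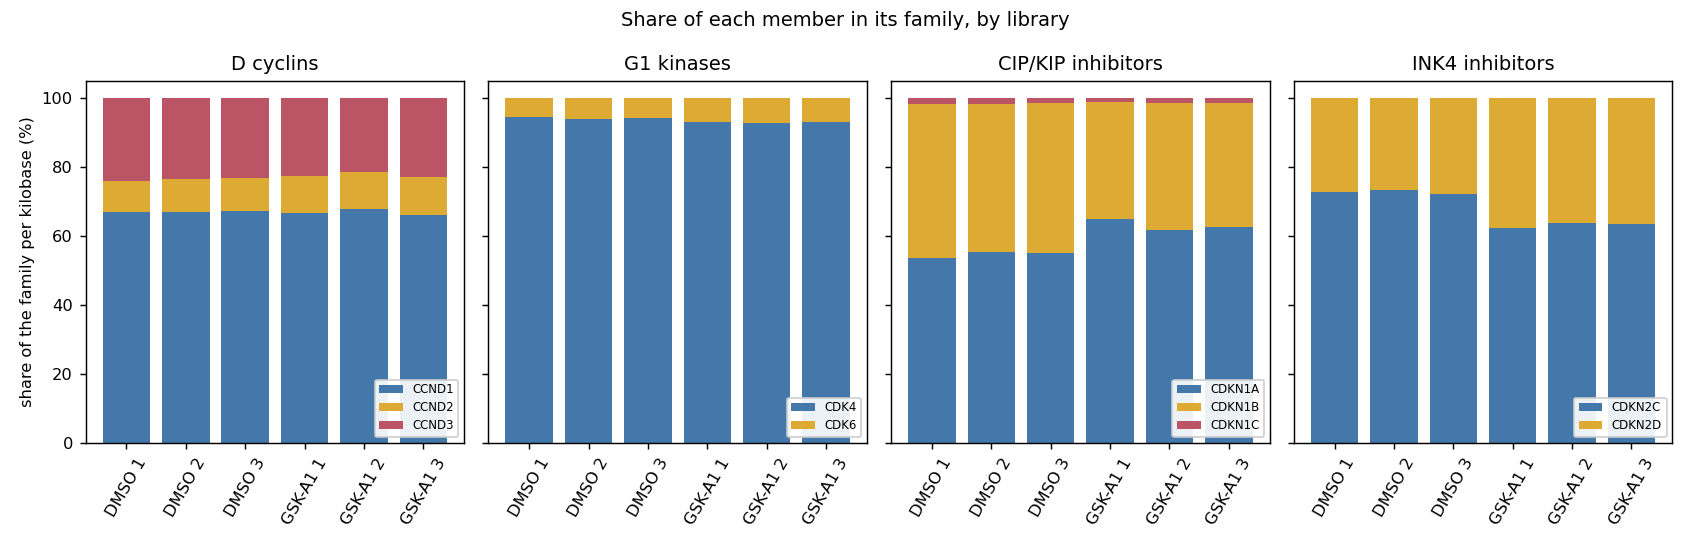
Stacked bars give the share (%) of each gene in its family, from counts per kilobase of the longest transcript, in each of the 6 libraries. The CDKN1A share of the CIP/KIP family rises from 53.6% to 55.3% in the DMSO libraries to 61.7% to 64.9% in the GSK-A1 libraries, and the CDKN2C share of the INK4 pair is lower in all 3 GSK-A1 libraries.

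Other genes of the G1 to S pathway are described by 6 gene lists. Over all tested genes 22.9% were called and the median log2 fold change was -0.01, and each list is given beside those values as a description. In the RB and E2F family 4 of 13 genes were called, all higher, and the list median in log2 units was 0.05. These were E2F3 (0.20 ± 0.04), E2F2 (0.18 ± 0.04), RBL2 (0.13 ± 0.04) and E2F5 (0.17 ± 0.05; SE, edgeR adjusted p from 0.00126 to 0.0258). E2F2 and E2F3 are activating E2F factors, E2F5 works with RB relatives in repression, and RBL2 encodes the RB1 relative p130. RB1 itself, not called, stood at 58.5 ± 0.5 and 57.7 ± 5.4 CPM (SD, n = 3). The count of 4 became 2 without any single DMSO library or without GSK-A1 replicate 1.

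In the list of the cyclin E, cyclin A and CDK2 arm 3 of 11 genes were called, 2 higher and 1 lower, and the list median in log2 units was 0.10. CCNE1, the cyclin that partners CDK2 at the G1 to S boundary, fell by 0.24 ± 0.05 on the log2 scale, from 28.2 ± 0.5 to 23.8 ± 0.8 CPM (edgeR adjusted p = 0.00276). Its values were 28.1, 28.6 and 27.7 CPM with DMSO and 23.6, 24.7 and 23.1 CPM with GSK-A1. CDC25A, the phosphatase that activates CDK2, rose by 0.18 ± 0.04, and CDK7, part of the CDK-activating kinase, rose by 0.22 ± 0.05. CDK2 itself, not called, stood at 119 ± 2 and 119 ± 3 CPM.

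Of 26 E2F target genes 5 were called, 1 higher and 4 lower, a share of 19.2%, and the list median in log2 units was 0.01. Among the lower genes were UHRF1 (-0.23 ± 0.04; edgeR adjusted p = 6.03e-04), MCM2 and MCM5, which serve methylation maintenance and replication licensing. The higher one was CDK1 (0.19 ± 0.05), named after its value was seen. Leaving out DMSO replicate 3 gave 3 calls, and leaving out GSK-A1 replicate 2, or removing the GC trend of each library, gave 11. Among 16 genes that control the breakdown of D cyclins and CDK inhibitors 5 were called, 3 higher and 2 lower (list median 0.0058). CKS1B, the cofactor of SKP2 in CDKN1B breakdown, rose by 0.18 ± 0.04, while the F-box genes FBXO4 (-0.54 ± 0.13) and FBXW8 (-0.20 ± 0.05) fell and the low-level chaperone gene CRYAB rose by 0.85 ± 0.27 (SE; edgeR adjusted p from 0.00926 to 0.0308). The other higher gene was USP2 (0.27 ± 0.09), named after its value was seen. Leaving out DMSO replicate 1, 2 or 3 gave 2, 1 or 2 calls, and leaving out GSK-A1 replicate 1 or 3 gave 3, as did DESeq2, which gave CRYAB no adjusted p. None of 5 other CDK inhibitors and relatives was called by edgeR, and 0 had an unadjusted p under 0.05. DESeq2 called 0 as well, and with upper-quartile factors edgeR called 1. CDKN2A and CDKN2B, the remaining INK4 genes, stood at 121 ± 8 and 18.0 ± 1.5 CPM with DMSO and 113 ± 6 and 18.2 ± 1.1 CPM with GSK-A1.

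**Figure D4:**
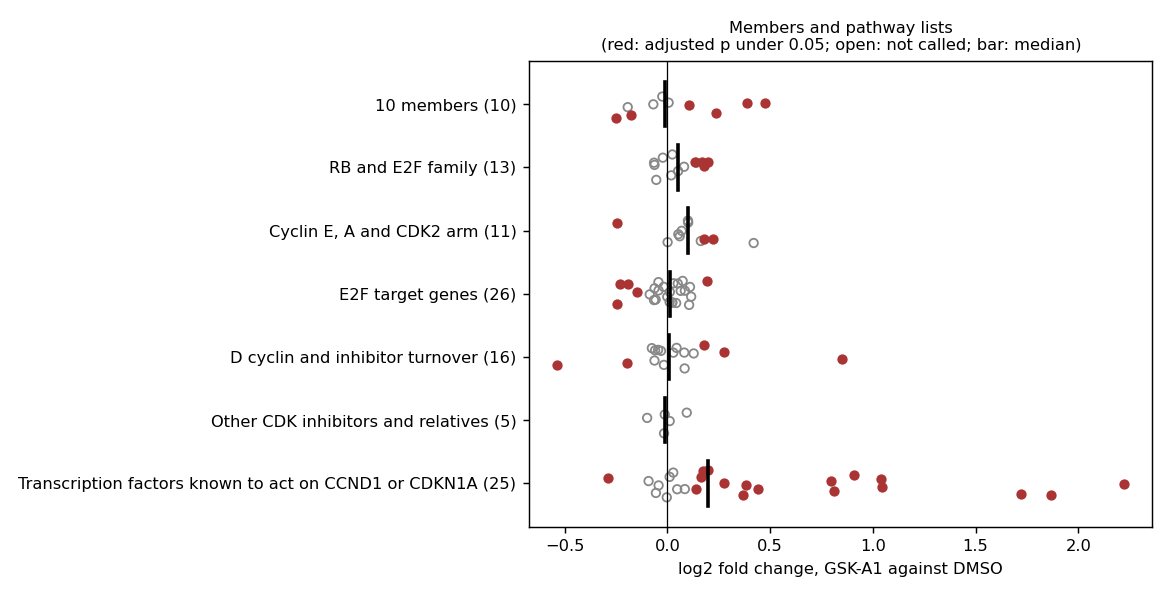
Each point is the log2 fold change of a tested gene, GSK-A1 against DMSO, for the 10 genes and 6 pathway lists (number tested in parentheses), in red where the edgeR adjusted p was under 0.05, with a bar at the median. The regulator list lies mostly to the right with a median of 0.20, and the other lists plotted have medians from -0.01 to 0.10.

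A list of 25 transcription factors known to act on CCND1 or CDKN1A had 17 called, 16 higher and 1 lower. That is 68.0%, against 22.9% of all tested genes, and the list median in log2 units was 0.20. The list was chosen with earlier results of these data known, so this share is only a description. The called genes with the smallest p-values were EGR1 (2.22 ± 0.06), ETV4 (1.72 ± 0.06), KLF6 (1.04 ± 0.05) and FOS (1.87 ± 0.08), early or ERK-linked factors whose edgeR adjusted p was at most 2.08e-10. KLF6, a zinc-finger factor known to act on the CDKN1A promoter, stood at 39.3, 42.3 and 42.6 CPM with DMSO and 84.3, 88.9 and 82.2 CPM with GSK-A1. A link between KLF6, or any other factor of the list, and the rise of CDKN1A was not tested. MYC rose from 172 ± 2 to 208 ± 4 CPM (0.28 ± 0.03; edgeR adjusted p = 4.92e-05), and it is named after its value was seen. CCND1, on which factors of the list are known to act, was not called in the same libraries.

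The genes whose pattern over the 6 libraries was most like that of CDKN1A, the member with the smallest p-value, were UBE2QL1, ARID5A, RNF122, CLDND1 and TAGLN2. Pearson correlations of log2 CPM were 0.996 to 0.999 over 6 libraries, out of 11173 genes with a mean of at least 5 CPM. The libraries fall into 2 groups, so these values mostly state that the genes also rose. Their log2 fold changes were 0.33 ± 0.06, 0.34 ± 0.05, 0.48 ± 0.04, 0.29 ± 0.04 and 0.33 ± 0.03 (SE).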

How the data were processed

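RNA was sequenced from 6 libraries of HEK293 cells, 3 per group, grouped and numbered by their titles. The file deposited by the authors gives unnormalised whole-number counts, 1 line per gene. Per the submitters' processing notes, the tools were cutadapt 5.1, STAR 2.7.11b, featureCounts, Subread 2.1.1 and DESeq2 1.38.0 on GRCh38.p13. Their settings, the annotation and the strand setting are not given in the sources used here. Reads carried no molecular identifiers, so errors come from replicates, and p-values measure the spread between these libraries, which may be partly technical.

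From the counts, edgeR 4.0.16 in R 4.3.3 was run on genes kept by filterByExpr (smallest count 10, smallest total 15), with TMM factors, robust dispersions (common biological coefficient of variation 4.06%) and the quasi-likelihood F test. Each SE was taken as the size of the log2 coefficient over the root of its F statistic. CPM use TMM-adjusted totals. On simulated counts for 16600 genes drawn for this comparison, 100% of genes changed by 1 on the log2 scale, 91.2% by 0.5 and 62.5% by 0.25 were recovered, and 4.68% of calls were unchanged genes. Only 40, 80 and 80 genes were changed by these sizes, none of them at low counts. That is a smaller share than was called in the data, so these rates do not give the power of the comparison itself. Gene positions, lengths and overlaps came from GENCODE 29, promoter windows from RefSeq (GRCh38.p14).

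The members and lists were chosen with earlier results of these data known. Named were all 10 members, up to 4 called genes of each list with the smallest p-values, and the 5 genes most like the member with the smallest p-value; any other gene was named after its values were seen. Alternatives were RLE, upper-quartile or no factors, other filters, a replicate block, DESeq2 1.42.0, limma-voom (limma 3.58.1), no robust estimation, a threshold of 0.01, each library left out, and, added after seeing the data, removal of each library's trend on GC content (loess, span 0.3). No clear replicate pairing was seen, and pairing was not tested. Of 7 gene lists, 1 list and some items of the others are not reported here.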

Additional observations from a re-analysis of the deposited data

How the results depend on the processing

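All members but CDK6 kept their side of the threshold in each of the 17 alternative fits. Between 5 and 6 members were called throughout, and 5 to 6 when each library was left out. CDK6 was not called under upper-quartile scaling (0.0665, edgeR adjusted p = 0.192), library totals only (0.10, 0.0726), no filter on low counts (0.12, 0.0599), a threshold of 0.01 (0.11, 0.0464) or with the GC trend removed (0.0737, 0.0961), and with each library left out its log2 fold change was 0.0947 to 0.127. The number of genes called moved from 3835 to 1871 at a threshold of 0.01 and ranged from 2163 (without DMSO replicate 1) to 4890 (without GSK-A1 replicate 2) with each library left out. The share of calls that were higher was 52.3% with TMM, 33.3% with upper-quartile scaling, 62.5% in DESeq2 and 64.4% with the GC trend removed, and upper-quartile scaling moved the median of all genes to -0.05. The log2 fold change of CCND1 turned to -0.0352 under upper-quartile scaling, to -0.0021 when only library totals were used and to -0.0015 with a mean of at least 1 CPM, and ranged from -0.0151 to 0.0308 with each library left out. That of CDKN1B ranged from -0.0642 to 0.0219 there. The cause of these turns was not tested.

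Length changed the shares by construction. With the union of exons and with no length correction, GSK-A1 minus DMSO in percentage points was -0.96 and -1.33 for CCND1 and -1.58 and -3.89 for CDK4. With no length correction it was 2.27 for CCND2 and -6.66 for CDKN2C. The log2 ratio of the inhibitors described here, without CDKN2A and CDKN2B, to the D cyclins differed by 0.13 and 0.11. With each library left out the CCND1 share difference ranged from -0.786 to 0.0623. List medians near 0 turned sign as follows. That of the E2F targets was -0.0296 under upper-quartile scaling. That of the turnover list was -0.0349 under upper-quartile scaling, -0.0023 when only library totals were used, -0.0243 with a mean of at least 1 CPM and -0.0075 without DMSO replicate 2. That of the other inhibitors was 6.08e-06 in DESeq2 and 0.0146 with the GC trend removed, and ranged from -0.0257 to 0.0021 with each library left out.

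No clear pairing by replicate number was seen. Same-numbered libraries correlated in their deviations by 0.011, 0.019 and 0.032, and differently numbered libraries by -0.033 to 0.012. Pairing was not tested, and these values cannot exclude a weak one. With the replicate block edgeR called 4127 genes and 6 members, and it changed no member's call.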
